A study of Homo sapiens with 3 samples.

Results

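The genes described here are 9 genes of antigen presentation by MHC class I: HLA-B, HLA-C, HLA-E, HLA-F, B2M, TAP1, TAP2, TAPBP and NLRC5. They were chosen by name from the 35851 rows of the deposited table, and each of the 9 names was found in 1 row. The data are poly(A) RNA-seq libraries of 5637, an established human bladder cancer cell line labelled as wild type (WT), grown in RPMI 1640 with serum and transfected with siRNA using Lipofectamine 3000. A control siRNA (siNC) was represented by 1 library, and siRNA against MYBL2, a transcription factor of late cell cycle genes, by 2 libraries, siMYBL2-1 and siMYBL2-2. Where 3 values follow a gene name, they stand in the order siNC, siMYBL2-1, siMYBL2-2. The study was designed to find genes and signalling downstream of MYBL2 in bladder cancer. The time after transfection is not given in the sources used here. Nothing in the labels says whether siMYBL2-1 and siMYBL2-2 are different siRNA sequences or repeats of 1 sequence. Nor do they state separate cultures. The p-values therefore measure only the spread between the siMYBL2 libraries, pooled in part over genes, and this spread may be technical.

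MHC class I molecules show peptides from inside the cell to CD8 T cells. The heavy chain (such as HLA-B or HLA-C, and the less variable HLA-E and HLA-F) pairs with beta-2-microglobulin, the product of B2M, in the endoplasmic reticulum. Peptides are made by the proteasome, pumped in by the TAP1 and TAP2 transporter and loaded with the help of tapasin, the product of TAPBP, while NLRC5 is a transactivator of the class I promoters and interferon is their best known inducer. Tumours, bladder tumours among them, can escape T cells by losing parts of this pathway, and natural killer (NK) cells respond to cells with little class I.

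The upstream regions of HLA-B, HLA-C and B2M are shown because these genes encode both chains of the class I molecule. With HLA-E, they were also the most abundant of the 9 genes. A further reason was a lower level in both siMYBL2 libraries, by direction only for HLA-C in siMYBL2-1 (0.992 times siNC, within counting error). Each region is a run of 210 bases that starts 250 bases before the RefSeq start of the gene (GRCh38.p14). It is printed 5′ to 3′ on the strand of the gene. HLA-B lies at chr6:31357220-31357429 on the minus strand, HLA-C at chr6:31272133-31272342 on the minus strand and B2M at chr15:44711267-44711476 on the plus strand. Capitals mark the letters of the motifs searched, on either strand.
HLA-B: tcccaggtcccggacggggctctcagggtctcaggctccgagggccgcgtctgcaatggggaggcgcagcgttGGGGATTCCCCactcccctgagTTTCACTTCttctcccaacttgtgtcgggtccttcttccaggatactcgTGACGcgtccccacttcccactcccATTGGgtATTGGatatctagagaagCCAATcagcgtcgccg
HLA-C: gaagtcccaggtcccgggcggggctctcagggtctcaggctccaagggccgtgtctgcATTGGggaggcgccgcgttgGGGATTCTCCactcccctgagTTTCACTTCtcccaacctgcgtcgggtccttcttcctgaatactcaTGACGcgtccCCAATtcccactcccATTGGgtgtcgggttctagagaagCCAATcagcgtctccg
B2M: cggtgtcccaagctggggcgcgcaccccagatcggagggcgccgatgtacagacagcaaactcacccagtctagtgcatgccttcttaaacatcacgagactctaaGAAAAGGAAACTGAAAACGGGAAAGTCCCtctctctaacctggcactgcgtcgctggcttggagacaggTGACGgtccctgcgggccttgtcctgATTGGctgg

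All 3 regions held the CCAAT box bound by NF-Y (CCAAT, printed as ATTGG on the other strand), which 28.9% of 34796 RefSeq upstream regions of the same length hold. All 3 also held the CRE core (TGACG, 17.4% of regions) and a kappa B motif, the site of NF-kB (8.45%). The interferon-stimulated response element was searched in 2 spellings, of which 7.68% of regions hold at least 1. The shorter one (GAANNGAAA, 5.52%) was found in HLA-B and HLA-C, printed as TTTCACTTC, and the longer one (GAAA, any 2 bases, GAAA; 2.49%) matched 2 overlapping frames in B2M. The HLA-B window lies within the opposite-strand row XXbac-BPG248L24.12, and the B2M window partly within the opposite-strand gene PATL2. In HLA-B the kappa B motif matched 2 overlapping frames, and in B2M its letters overlap a MYB core (AACGG, 13.7%), which also overlaps the interferon element and which neither HLA-B nor HLA-C held in this window. The cell cycle homology region (TTTGAA, 11.7%), through which MuvB complexes bind, was in none of these 3 windows. A match is a description of letters and not a measured binding site. The table of upstream regions matched 7 of the 9 genes, without HLA-E and NLRC5.

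The libraries held 40259436 to 46177658 assigned reads, and MYBL2, the targeted gene, was measured at 211, 46.0 and 56.3 RPKM (RPKM is a read count scaled by exonic length and by the total of assigned reads). By limma-trend this is a log2 change of -2.03 (SE 0.30, adjusted p 0.153), and the adjusted p by limma-voom was 0.00811. Epithelial markers were expressed: the 7 genes KRT5, KRT7, KRT8, KRT18, KRT19, EPCAM and CDH1 summed to 2160, 2460 and 1890 RPKM. The 6 leukocyte markers summed to 0.190 to 0.222 RPKM and 3 or 4 of them had 0 reads in a library. The 3 endothelial markers summed to at most 0.109 RPKM and the 4 fibroblast markers to 1.33 to 2.04 RPKM, nearly all of it COL1A1. In RNA from a whole culture, fewer cells that express a gene and less RNA per cell cannot be told apart.

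Class I genes covered a wide range of levels in 5637 cells. In RPKM, which is a level per length, HLA-C and HLA-B were highest in every library, HLA-E and B2M followed, TAP2, TAP1 and TAPBP came next, and HLA-F and NLRC5 were lowest. The ranges over the 3 libraries were 44.7 to 57.8 RPKM for HLA-C, 35.8 to 44.2 for HLA-B, 20.2 to 35.2 for HLA-E and 20.3 to 28.0 for B2M. TAP2 lay at 7.84 to 12.5 RPKM, TAP1 at 2.53 to 3.40, TAPBP at 1.80 to 3.00, HLA-F at 0.457 to 0.835 and NLRC5 at 0.233 to 0.286. The ranges of HLA-E and B2M overlapped, as did those of TAP1 and TAPBP, and the other neighbours in this order did not overlap. HLA-E stood above B2M in siMYBL2-1 and below it in the other libraries. The order is of deposited RPKM, and B2M is divided there by 6089 exonic bases, while its longest protein-coding transcript in GENCODE release 29 has 1705; by reads B2M was the most abundant of the 9 genes in siNC (6865 reads) and siMYBL2-2 (6746). HLA-F and NLRC5 fell short of the mean of 1 RPKM needed for the test, so 7 of the 9 genes were tested.

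**Figure D1:**
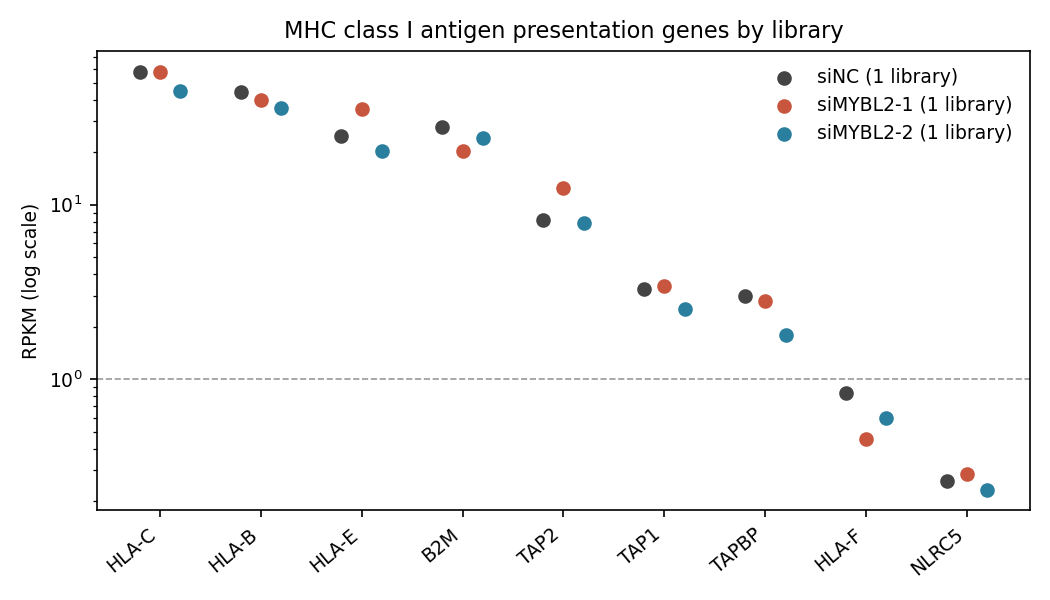
Deposited RPKM (log axis) of the 9 class I genes, 1 point per library (siNC, siMYBL2-1 and siMYBL2-2), with the dashed line at 1 RPKM, the mean needed for the test. HLA-C and HLA-B are highest, HLA-F and NLRC5 lie below the line, and HLA-E and TAP2 are highest in siMYBL2-1.

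The class I genes shared a direction in siMYBL2-2 but not in siMYBL2-1. In siMYBL2-2 the level of each of the 9 genes was lower than in siNC, at 0.602 to 0.961 times siNC. Of the 9 genes, 7 had a 95% counting interval below 1, among them HLA-F, which was not tested. Over all 13274 genes tested 33.3% had such an interval, which is narrower for genes with more reads. In siMYBL2-1 the genes went apart: HLA-F, B2M and HLA-B had intervals below 1, HLA-E and TAP2 above 1, and HLA-C, TAP1, TAPBP and NLRC5 spanned it. In that library 39.9% of all genes tested had an interval below 1 and 31.4% above 1. By direction alone, 52.0% of all genes tested were lower in siMYBL2-2 and 54.7% lower in siMYBL2-1 than in siNC. The counting intervals are exact conditional binomial intervals on the reads recovered from the table, and they cover counting error of 1 library against 1, not the spread between cultures.

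By limma-trend, the test of the siMYBL2 pair against siNC, 0 of the 7 tested class I genes passed an adjusted p of 0.05, and 0 had an unadjusted p under 0.05 (smallest 0.286, B2M). Over all genes 0.00753% passed. By limma-voom on recovered reads, where 0.0753% of genes passed, 0 of the 7 genes passed and 0 had an unadjusted p under 0.05. The design has 1 control library and 1 residual degree of freedom, which comes from the siMYBL2 pair. The SE of a gene by limma-trend thus rests largely on the spread over all genes tested (median total degrees of freedom 10.2). The 95% interval of the log2 change of B2M by limma-trend ran from -0.98 to 0.32.

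**Figure D2:**
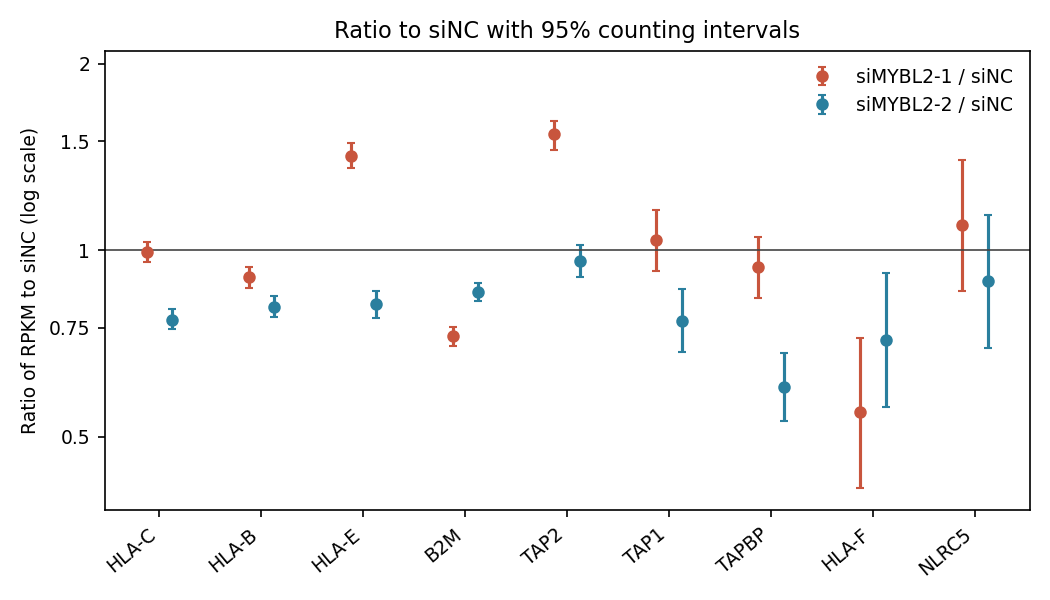
Ratio of RPKM to siNC (log axis) of each class I gene in siMYBL2-1 and siMYBL2-2, with bars for the 95% counting interval. All siMYBL2-2 points lie below 1, between 0.602 and 0.961, while HLA-E (1.42) and TAP2 (1.54) lie above 1 in siMYBL2-1.

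Among the heavy chains, HLA-B presents peptides to CD8 T cells and had 44.2 RPKM with siNC (5357 reads), 39.9 with siMYBL2-1 (5031 reads) and 35.8 with siMYBL2-2 (4986 reads). Both siMYBL2 libraries were lower than siNC, at 0.904 (95% counting interval 0.870 to 0.940) and 0.811 (0.781 to 0.844) times its level. The siMYBL2 mean was 37.9 ± 2.89 RPKM (SD, n = 2), and the limma log2 change was -0.22 (SE 0.29, adjusted p 0.999). HLA-B (chromosome 6, 31353872 to 31357188, minus strand, hg38) has 82.0% of its exonic bases to itself and shares the rest with the opposite-strand row XXbac-BPG248L24.12, which was at 63.0, 63.9 and 59.4 RPKM. The library kit marks strand, but no strand setting of the counting is given, so reads of both rows in the overlap cannot be told apart.

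HLA-C, a heavy chain that also binds receptors of NK cells, had 57.8 RPKM with siNC (5830 reads), 57.3 with siMYBL2-1 (6008 reads) and 44.7 with siMYBL2-2 (5170 reads). Only siMYBL2-2 stood apart, at 0.773 times siNC (0.745 to 0.803), while siMYBL2-1 was at 0.992 times (0.957 to 1.03). The spread within the siMYBL2 pair, 51.0 ± 8.94 RPKM (SD, n = 2), was larger than the distance of its mean from siNC, and the limma log2 change was -0.19 (SE 0.30, adjusted p 0.999). HLA-C spans 31268749 to 31272130 on the minus strand of chromosome 6, and shares no exonic bases with another row. Class I genes are similar in sequence: of the runs of 50 bases in the longest protein-coding transcript of each gene, 6.71% in HLA-C, 4.66% in HLA-E, 2.54% in HLA-B and 1.51% in HLA-F also occur in another class I transcript or pseudogene of GENCODE release 29. Alleles of the cell line that differ from the reference could change how many of its reads aligned, which was not tested.

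HLA-E, which carries peptides from the leader of other class I chains and is read by the NKG2A receptor of NK cells, went in opposite directions. It measured 24.7 RPKM with siNC (2964 reads), 35.2 with siMYBL2-1 (4382 reads) and 20.2 with siMYBL2-2 (2780 reads), which is 1.42 times siNC (1.36 to 1.49) and 0.818 times (0.776 to 0.861). The siNC library lay between both siMYBL2 libraries, which differed from each other 1.74-fold (1.66 to 1.83). The siMYBL2 mean was 27.7 ± 10.6 RPKM (SD, n = 2), with a limma log2 change of 0.11 (SE 0.35, adjusted p 0.999). The ratio of HLA-E to HLA-C was thus 0.615 in siMYBL2-1 against 0.428 in siNC and 0.453 in siMYBL2-2. HLA-E lies on the plus strand of chromosome 6, 30489467 to 30494205, with 100% of its exonic bases its own.

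HLA-F, another heavy chain of low variability, had low levels of 0.835 RPKM with siNC (146 reads), 0.457 with siMYBL2-1 (83 reads) and 0.598 with siMYBL2-2 (120 reads). Both siMYBL2 libraries were below siNC, at 0.547 (0.413 to 0.721) and 0.717 (0.558 to 0.919) times its level. HLA-F (chromosome 6, 29722775 to 29738528, plus strand) shares 28.5% of its exonic bases with the opposite-strand rows HLA-F-AS1, HCG4P11 and RPL23AP1. The antisense row HLA-F-AS1 was also lower in both, at 0.909, 0.343 and 0.399 RPKM, and without a strand setting its reads cannot be told apart from those of HLA-F in the shared bases.

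B2M encodes the light chain that pairs with class I heavy chains, and it was lower in both siMYBL2 libraries. It measured 28.0 RPKM with siNC (6865 reads), 20.3 with siMYBL2-1 (5175 reads) and 24.0 with siMYBL2-2 (6746 reads). Unlike HLA-B, HLA-C and HLA-E, B2M was lowest in siMYBL2-1: 0.726 times siNC (0.700 to 0.752) there and 0.857 times (0.828 to 0.886) in siMYBL2-2. The siMYBL2 mean was 22.2 ± 2.59 RPKM (SD, n = 2), with a limma log2 change of -0.33 (SE 0.29, adjusted p 0.999). B2M lies on the plus strand of chromosome 15, 44711477 to 44718877, apart from the class I genes of chromosome 6, and 100% of its exonic bases are its own.

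TAP1 and TAP2 form the transporter that moves peptides into the endoplasmic reticulum, and the levels of their rows differed from each other. TAP2 had 8.16 RPKM with siNC (2100 reads), 12.5 with siMYBL2-1 (3351 reads) and 7.84 with siMYBL2-2 (2314 reads), or 1.54 times siNC (1.45 to 1.62) and 0.961 times (0.905 to 1.02). The siMYBL2-1 library was high and the other libraries did not differ beyond counting error. The siMYBL2 mean was 10.2 ± 3.32 RPKM (SD, n = 2), and the limma log2 change was 0.26 (SE 0.33, adjusted p 0.999). TAP2 (chromosome 6, 32821833 to 32838780, minus strand) has 67.7% of its exonic bases to itself. The remainder lies in the same-strand row XXbac-BPG246D15.9, which was also highest in siMYBL2-1, at 16.2, 24.9 and 16.5 RPKM. The reads of that row (1765, 2814 and 2056) cannot be told apart from those of TAP2 in the shared bases.

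TAP1, the partner subunit, had 3.28 RPKM with siNC (605 reads), 3.40 with siMYBL2-1 (651 reads) and 2.53 with siMYBL2-2 (534 reads). It was lower in siMYBL2-2 alone, at 0.770 times siNC (0.684 to 0.866), with siMYBL2-1 at 1.04 times (0.926 to 1.16). The siMYBL2 mean was 2.96 ± 0.618 RPKM (SD, n = 2) and the limma log2 change -0.12 (SE 0.29, adjusted p 0.999). The ratio of TAP1 to TAP2 was 0.402 in siNC, 0.271 in siMYBL2-1 and 0.322 in siMYBL2-2. TAP1 lies at 32845209 to 32853978 on the minus strand of chromosome 6, where 90.0% of its exonic bases are its own and the rest belong to the opposite-strand row PSMB8-AS1.

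TAPBP, whose product tapasin holds empty class I molecules next to the transporter, was lowest in siMYBL2-2. It measured 3.00 RPKM with siNC (610 reads), 2.81 with siMYBL2-1 (595 reads) and 1.80 with siMYBL2-2 (421 reads). The siMYBL2-2 level was 0.602 times siNC (0.530 to 0.682), the lowest ratio of the 9 genes in that library, and siMYBL2-1 was at 0.939 times (0.837 to 1.05). With a siMYBL2 mean of 2.31 ± 0.715 RPKM (SD, n = 2), the limma log2 change was -0.29 (SE 0.30, adjusted p 0.999). TAPBP occupies 33299694 to 33314387 on the minus strand of chromosome 6.

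NLRC5, the transactivator of class I genes, was the lowest of the 9, with 0.261 RPKM after siNC (130 reads), 0.286 after siMYBL2-1 (148 reads) and 0.233 after siMYBL2-2 (133 reads). Its ratios to siNC were 1.10 (0.860 to 1.40) and 0.892 (0.695 to 1.14), so no difference was detectable at this depth. NLRC5 lies on the plus strand of chromosome 16, 56989485 to 57083531. CIITA, the related transactivator of class II genes, was also low, with 117, 95 and 100 reads.

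Counted by direction, 5 of the 9 genes (HLA-B, HLA-C, HLA-F, B2M and TAPBP) were lower than siNC with siMYBL2-1 and with siMYBL2-2, 0 were higher in both and 4 (HLA-E, TAP1, TAP2 and NLRC5) went in opposite directions. Among all genes tested 36.4% were lower in both and 29.7% higher in both. Of the 5, HLA-B, HLA-F and B2M had counting intervals below 1 in both libraries, a state that 21.1% of all genes tested share. HLA-F is not among the genes tested. HLA-C counts here through a siMYBL2-1 ratio of 0.992, and with libraries scaled to the same median 4 genes, without HLA-C, were lower in both. Both ratios of a gene use the same siNC library, so they are not independent. HLA-E, TAP1, TAP2 and NLRC5 were highest in siMYBL2-1, as were 34.1% of all genes tested. The lowest level was in siMYBL2-2 for 7 of the 9 genes, all but HLA-F and B2M, and for 29.1% of all genes tested. For the 9 genes the median log2 ratio (of RPKM + 1, against siNC) stood at -0.01 for siMYBL2-1 and -0.28 for siMYBL2-2, beside -0.04 and -0.01 over all genes tested. Together they took 0.0611%, 0.0608% and 0.0502% of the assigned reads. The genes of at least 5 RPKM whose pair of log2 ratios lay nearest to the median pair of the 9 genes, among 6348 genes and over these 3 libraries only, included JSRP1, COG1, APLP2 and CAPNS1, at distances of 0.0067 to 0.018.

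**Figure D3:**
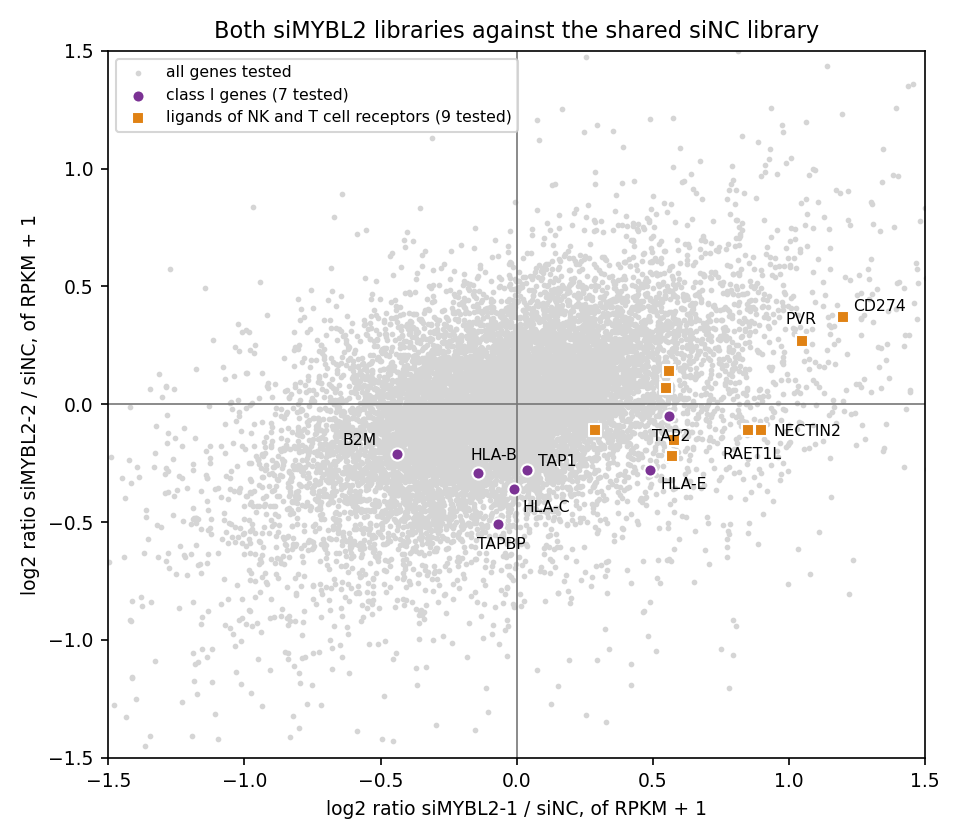
Log2 ratio to siNC (of RPKM + 1) in siMYBL2-1 (x axis) and siMYBL2-2 (y axis) for all 13274 genes tested (grey), the 7 tested class I genes (circles) and 9 tested ligands of NK and T cell receptors (squares); 164 genes lie beyond 1.5 on an axis and are not drawn. Both axes share the siNC library. All class I points lie below 0 on the y axis, as do 52.0% of all genes tested. All squares lie to the right of 0 on the x axis, where 54.7% of all genes tested lie to the left.

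The class I pseudogene HLA-H was lower than siNC in each siMYBL2 library, at 8.18, 6.33 and 6.24 RPKM, and did not pass limma (log2 change -0.33, adjusted p 0.999). Class II genes were close to absent: of 8 rows, 4 or 5 had 0 reads in a library and the highest count was 14 reads, for HLA-DMA, named after its values were seen.

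The supply of peptides showed no common direction. Of 14 genes of the immunoproteasome, its activators and the trimming peptidases, 5 were lower in both siMYBL2 libraries, 3 higher in both and 6 opposite. Over all genes tested, 36.4% were lower in both and 29.7% higher in both. None of the 14 genes passed limma, and their medians were 0.00 in siMYBL2-1 and -0.09 in siMYBL2-2. PSMB8 and PSMB9, catalytic subunits of the immunoproteasome lie beside TAP1 and TAP2. PSMB8 was at 16.4, 16.5 and 15.1 RPKM, while PSMB9 was at 1.37, 0.942 and 1.07 RPKM. Of these neighbours only PSMB9 was lower in each siMYBL2 library. PSME3, the gamma form of the proteasome activator, was at 60.4, 84.2 and 74.7 RPKM, and the leucine aminopeptidase gene LAP3 at 8.37, 11.5 and 10.7 RPKM. Both were higher in each siMYBL2 library, whereas ERAP2, which trims peptides in the endoplasmic reticulum, was at 3.24, 2.50 and 2.46 RPKM.

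Among 7 loading chaperones, 5 were below siNC in both siMYBL2 libraries, 1 higher in both and 1 opposite. Over all genes tested, 36.4% were lower in both and 29.7% higher in both. The chaperone medians were -0.03 and -0.17, with 0 limma calls. CALR (calreticulin, a chaperone of the loading complex) was at 591, 402 and 433 RPKM, a limma log2 change of -0.50 (SE 0.29, adjusted p 0.999). HSPA5, the general chaperone BiP, was the one higher in both, at 276, 399 and 310 RPKM. PDIA3, the oxidoreductase of the loading complex, was at 95.8, 95.0 and 81.3 RPKM, and TAPBPL, a peptide editor related to tapasin, at 1.25, 1.02 and 0.999 RPKM. Of the 6 genes of class I surface turnover, 2 were lower in both, 1 higher in both and 3 opposite (medians -0.03 and -0.08). The same shares over all genes tested, 36.4% and 29.7%, apply beside this count. SUSD6 and TMEM127, membrane proteins that direct class I to degradation, were lower in each siMYBL2 library (SUSD6 3.29, 2.83 and 1.91 RPKM; TMEM127 3.23, 2.91 and 2.27 RPKM). WWP2, the ubiquitin ligase that acts with them, was at 3.32, 3.86 and 3.15 RPKM. None of these 3, the ones high enough to test, passed limma. The gene higher in both was MARCH4, a ubiquitin ligase that can remove class I from the surface, with 14, 240 and 72 reads, named after its values were seen.

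The 20 promoter factors and regulators of class I genes had no common direction, with 7 lower in both siMYBL2 libraries, 7 higher in both and 6 opposite. Over all genes tested, 36.4% were lower in both and 29.7% higher in both. The medians of the 20 were -0.03 and -0.01, with 0 limma calls among 19 tested. RFXAP, a subunit of the RFX complex on class I and class II promoters, was at 3.39, 1.85 and 2.46 RPKM. EZH2, the methyltransferase of the Polycomb complex that can silence class I genes, was at 50.8, 45.0 and 37.0 RPKM, and STAT2 at 2.32, 1.95 and 1.63 RPKM. These 3 were lower in each siMYBL2 library. NFKB1 was at 6.72, 9.92 and 6.78 RPKM, high in siMYBL2-1 alone. HLA-E and TAP2 were also highest there, as were 34.1% of all genes tested, and a link to NFKB1 was not tested.

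The interferon list (receptors, kinases and SOCS genes) lay on the lower side by median in both siMYBL2 libraries. The medians were -0.18 in siMYBL2-1 and -0.11 in siMYBL2-2, beside -0.04 and -0.01 over all genes tested. Of 9 genes of this list in the table, 9 were lower in siMYBL2-2 than in siNC, as were 52.0% of all genes tested. The siMYBL2-2 counting intervals of IFNGR2, IFNAR1, JAK2, SOCS1 and SOCS3 spanned 1. By direction, 6 were lower in both siMYBL2 libraries, 0 higher in both and 3 opposite. Among all genes tested 36.4% were lower in both and 29.7% higher in both. IFNGR1, a receptor chain for interferon gamma, was at 45.1, 32.0 and 31.7 RPKM, and IFNAR2, a receptor chain for type I interferon, at 4.33, 2.86 and 2.72 RPKM. For both genes the siMYBL2 libraries were close to each other and below siNC, with a limma log2 change of -0.49 (adjusted p 0.999). IFNAR2 shares 48.4% of its exonic bases with the rows AP000295.9 and IL10RB-AS1, so its level may include their reads. The kinase gene TYK2 was at 4.79, 3.93 and 3.60 RPKM. SOCS3, a feedback inhibitor of cytokine receptors, was at 1.55, 9.11 and 1.37 RPKM, high in siMYBL2-1 alone. None of the 8 tested passed limma. No row named IFNB1 or IFNG was found in the deposited table, so neither gene was analysed.

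Ligands that NK and T cells read beside class I separated the siMYBL2 libraries. Of 12 genes, 10 were highest in siMYBL2-1, beside 34.1% of all genes tested. The exceptions ULBP1 and RAET1E were under 1 RPKM on average, and so was PDCD1LG2, one of the 10, with 5, 14 and 10 reads. ULBP1 was at 0.619 times siNC (0.395 to 0.957) in siMYBL2-1. The 9 genes of this list that were tested were all highest in siMYBL2-1. The median log2 ratios of the 12 genes were 0.57 for siMYBL2-1 and -0.03 for siMYBL2-2, beside -0.04 and -0.01 over all genes tested. By direction, 5 were higher in both, PDCD1LG2 with its few reads among them, 1 lower in both and 6 opposite. Among all genes tested 29.7% were higher in both and 36.4% lower in both. CD274, which encodes PD-L1, was at 2.14, 6.21 and 3.05 RPKM, and PVR, a ligand of the receptors DNAM-1 and TIGIT, at 17.8, 38.0 and 21.7 RPKM. Both were higher in each siMYBL2 library, with limma log2 changes of 0.78 (SE 0.36) and 0.66 (SE 0.36) and an adjusted p of 0.999. NECTIN2, which binds the same receptors, was at 17.8, 33.9 and 16.4 RPKM, and RAET1L, a ligand of the activating receptor NKG2D, at 3.21, 6.59 and 2.90 RPKM. These were high in siMYBL2-1 alone. None of the 9 tested passed limma, with an unadjusted p of 0.0547 for CD274 the smallest (0.0396 by limma-voom, adjusted p 1). Of the 7 epithelial markers, 5 were also highest in siMYBL2-1, among them EPCAM (102, 177 and 71.8 RPKM) and CDH1 (14.8, 36.2 and 8.98 RPKM). The exceptions KRT5 (315, 176 and 230 RPKM) and KRT19 (949, 800 and 716 RPKM) were highest in siNC. The part of these markers in the ligand result was not tested.

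**Figure D4:**
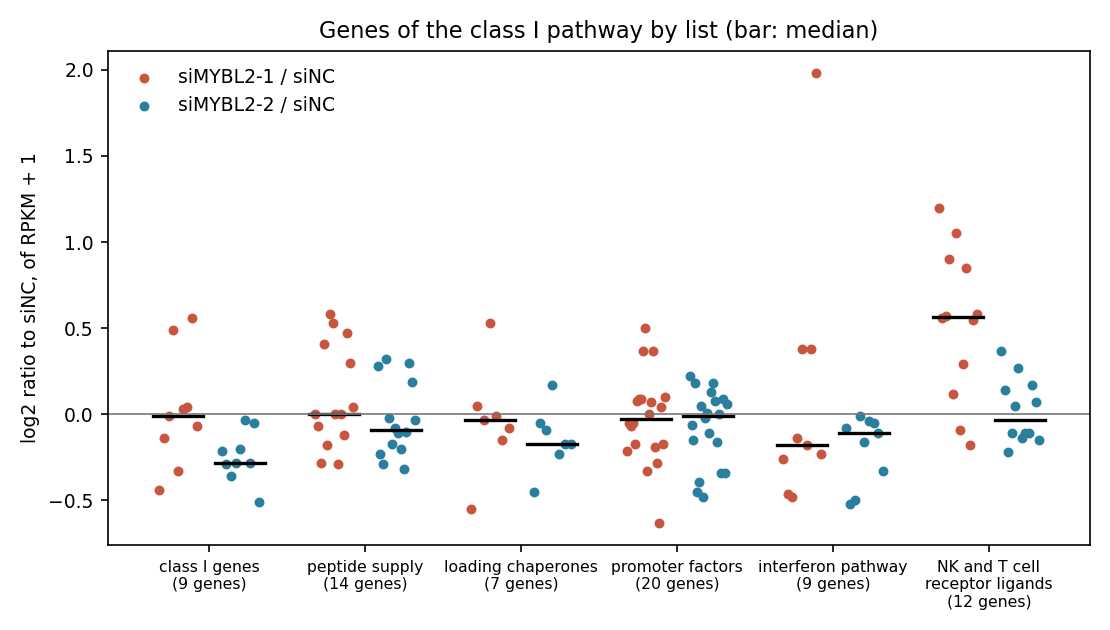
Log2 ratio to siNC (of RPKM + 1) of every gene in the table for 6 lists, 1 point per gene in siMYBL2-1 and in siMYBL2-2, with a bar at the median. The class I genes have medians of -0.01 and -0.28, and the ligands of NK and T cell receptors 0.57 and -0.03.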

How the data were processed

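The authors deposited RPKM values, named so per the file headers, in a table of 35851 rows with exon intervals and exonic lengths. The submitters' processing notes name cutadapt 1.9, HISAT2 2.0.4, StringTie 1.3.4d and hg38. Which program counted reads, with which annotation and strand setting, is not given in the sources used here. Reads were recovered from RPKM, length and the smallest step in each library (100% of values whole within 0.001 reads). Since RPKM is relative to the library total, abundant genes that rise lower the rest.

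limma-trend (limma 3.58.1, R 4.3.3) was fitted on log2(RPKM + 1) for 13274 genes (mean RPKM 1 or more), siMYBL2 (2 libraries) against siNC (1, assumed to vary alike), with Benjamini-Hochberg adjustment over all genes. A run on simulated data used only changes far larger than those of the class I genes. It therefore cannot say whether changes of their size would be found. Log2 ratios use RPKM + 1, which understates low genes; plain ratios use reads. The 9 genes and all lists were chosen with earlier results of these data known. Named from each list were the 4 tested genes with the largest absolute mean log2 ratio, plus PSMB8 and PSMB9. Others were named after their values were seen. Alternatives were another pseudocount, filters, scalings, robust moderation, limma-voom and leaving out each siMYBL2 library. HLA-DQA1 was not analysed, because no row of that name was found. Some further genes that these rules name are not reported here. MARCH genes stored as dates were resolved by position. Reads are not independent molecules, so intervals cover counting error only.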

Additional observations from a re-analysis of the deposited data

How the results depend on the processing

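No class I gene passed limma under any setting tried (another pseudocount, no filter, a mean of at least 5 RPKM, both other scalings, robust moderation and limma-voom), with a smallest unadjusted p of 0.195 to 0.293, an adjusted p of at least 0.808, and no change of sign. Over all genes, limma-trend called 1 gene, also with a pseudocount of 0.1, and 0 under the other settings of that test (259 to 2364 genes with an unadjusted p under 0.05), while limma-voom called 10. The median log2 ratio of the class I genes was -0.20 to -0.19 under the other filters, pseudocount and scalings, and lay between -0.28 and -0.01 when 1 siMYBL2 library was left out, so siMYBL2-2 carried it. When siMYBL2-1 was left out, 9 genes were lower and 0 higher than siNC, and when siMYBL2-2 was left out 5 were lower and 4 higher, settings added after the data had been seen. With libraries scaled to the same median, 4 rather than 5 genes were lower in both, and the siMYBL2-1 median was 0.01 instead of -0.01. The numbers of counting intervals below and above 1, 10 and 2 of 18, were the same under both other scalings. Leaving out either siMYBL2 library leaves no residual degree of freedom, so no test was possible there. No paired analysis was possible because the single siNC library carries no replicate number to share with the siMYBL2 pair. At this depth HLA-F and NLRC5 rest on 83 to 148 reads per library.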
